A study of Mus musculus with 6 samples.

Results

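The genes described here are 10 genes of lipid droplets and of the making, storage and breakdown of triglyceride: Plin2, Plin3, Hilpda, Dgat1, Dgat2, Pnpla2, Lpin1, Gpam, Cd36 and Lpl. They were chosen by gene symbol, and all 10 were found among the 46095 gene rows of the count table. All 10 had enough counts to be tested. They were measured by RNA sequencing in primary renal tubular epithelial cells (PTECs), freshly isolated from kidneys of C57 mice at 10 weeks of age. The 3 libraries labelled VHL-KO, replicates 1, 2 and 4, came from Ksp-Cre; VHL fl/fl mice. The other 3, which bear the label VHL-KO;SETD2-KO with numbers 2, 3 and 4 (here also called the double-knockout label), came from mice of that genotype with Setd2 fl/fl in addition. Both groups thus carried the Cre transgene and the floxed VHL alleles, and no wild-type library was analysed here. Cre is driven by the Ksp (Cdh16) promoter, which is active in renal tubules and is known to be strongest in their distal segments, so cells in which it is silent would keep both genes. The comparison asks what the loss of Setd2, a histone methyltransferase, adds to the loss of VHL, which targets hypoxia-inducible factors (HIF) for degradation.

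Cells store fatty acids as triglyceride in lipid droplets, which bud from the endoplasmic reticulum and carry a coat of perilipins. Fatty acids that enter through CD36, or that lipoprotein lipase frees from lipoproteins, are joined stepwise to glycerol by the enzymes of the glycerol phosphate pathway, of which the DGAT enzymes carry out the last step, and the lipase ATGL (Pnpla2) starts their release. Proximal tubule cells burn fatty acids as their main fuel, and lipid droplets are a hallmark of clear cell renal carcinoma, in which VHL is lost. Plin2 and Hilpda are known targets of HIF.

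The HIF core motif was therefore looked up in the promoters of the members. RefSeq promoter sequence of GRCm38.p6 was held for 7 of the 10 genes, in 9 windows of 250 bases that end at a start site, since Hilpda and Gpam had more than 1. The motifs ACGTG and GCGTG were searched on both strands. At least 1 match was present in 3 genes, in 1 window each, and so in 3 of the 9 windows. Of all 32851 windows of the same length, 38.6% held one, so a match is common. The matches are shown with 10 bases on either side, in the direction of the gene and with the match in capitals. CACGC is GCGTG on the other strand. The Plin2 site (chr4:86670131-86670155, minus strand) begins 86 bases before the start, the 3 sites of the second start of Hilpda (chr6:29272505-29272529, chr6:29272573-29272597 and chr6:29272608-29272632, plus strand) begin 111, 43 and 8 bases before it, and the site of the second start of Gpam (chr19:55099655-55099679, minus strand) begins 192 bases before it.
Plin2: ttggggttccCACGCcctcatcccc
Hilpda, site at 111 bases: accgcgagccGCGTGctttccgtga
Hilpda, site at 43 bases: tggccagcggACGTGccccagggcg
Hilpda, site at 8 bases: ggttcggtacGCGTGcgcagtctcc
Gpam, second start: tagctgaggtCACGCaagggagatg

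Cd36 and the first start of Gpam held 0 matches in their windows. These windows are printed whole because both genes passed as lower at the unadjusted threshold once the library labelled VHL-KO 4 was left out, as described further on. Lpin1 passed in the same way, and its window (chr12:16610967-16611216, minus strand) also held 0 matches but is not printed. The Cd36 and Lpin1 windows lie inside the spans of their genes, so any start further upstream was not searched. The Cd36 window lies at chr5:17835897-17836146 on the minus strand, with 43.2% G and C, and the Gpam window at chr19:55127239-55127488 on the minus strand, with 54.8%.
Cd36: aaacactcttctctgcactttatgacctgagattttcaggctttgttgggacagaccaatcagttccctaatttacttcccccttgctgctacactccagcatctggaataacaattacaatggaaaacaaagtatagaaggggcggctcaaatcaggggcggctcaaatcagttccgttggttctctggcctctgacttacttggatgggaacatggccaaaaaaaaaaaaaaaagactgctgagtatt
Gpam, first start: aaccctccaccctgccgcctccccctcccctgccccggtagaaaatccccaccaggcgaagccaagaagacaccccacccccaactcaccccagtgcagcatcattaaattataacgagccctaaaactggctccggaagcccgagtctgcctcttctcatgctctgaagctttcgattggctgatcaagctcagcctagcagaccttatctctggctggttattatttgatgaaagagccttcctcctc

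Total counts ranged from 11168552 to 17883466 per library, and the 3 counts taken as the lowest detectable signal correspond to between 0.159 and 0.281 CPM (read counts set against a common library size, scaled by edgeR's TMM method), for counting error only. The members lay well above this, the lowest being Hilpda in VHL-KO 2 with 42 counts. Setd2 had 1179, 799 and 132 counts under the VHL-KO label and 1499, 1019 and 1429 under the double-knockout label, so it was not lower where its deletion is labelled, and libraries are named by their labels throughout. The floxed VHL gene had between 139 and 317 counts in the 6 libraries. The library labelled VHL-KO 4 stood apart. Its rank correlation with the others across tested genes was 0.717 to 0.765, mitochondrial genes took 11.3% of its counts against 25.9% to 36.4% elsewhere, and its level lay outside the range of the other 5 libraries for most tested genes, above it for 40% and below it for 41.6%. VHL-KO;SETD2-KO 3 stood apart in other genes, among them the member Cd36 and Xist, the RNA that coats the silenced X chromosome in cells of females. Xist had 11704 counts in it and 0 to 4 counts in the other 5 libraries, and the part of this difference in the results that rest on VHL-KO;SETD2-KO 3 was not tested. Results for the members are therefore given with and without these libraries. Those for the other lipid genes are given with and without VHL-KO 4 only.

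Of the 10 members, 8 had a lower and 2 a higher fitted level under the double-knockout label, but only Dgat2 was called in edgeR's quasi-likelihood test, at thresholds of 0.05 for the unadjusted p and 1.5 for the fold change. Of all 14611 tested genes, 4.68% passed as lower and 2.65% as higher, so 1 of 10 lower and 0 of 10 higher is close to that background. With Benjamini-Hochberg adjustment in edgeR, 0 members passed, as against 0.00684% of all tested genes, which is 1 gene. DESeq2 also called 0 members, but it gave an adjusted p to only 3 of them, Dgat2, Cd36 and Lpl. Without any overlap between labels stood 1 member, again Dgat2, which was lower. Among all tested genes 11% were lower and 9.62% were higher without overlap. The median log2 fold change of the members was -0.68, beside 0.0093 over all tested genes. Leaving out the library labelled VHL-KO 4 changed this picture. Lpin1, Gpam and Cd36 then passed as lower and Dgat2 did not, and the median over the members was -0.18 beside 0.030 over all.

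**Figure D1:**
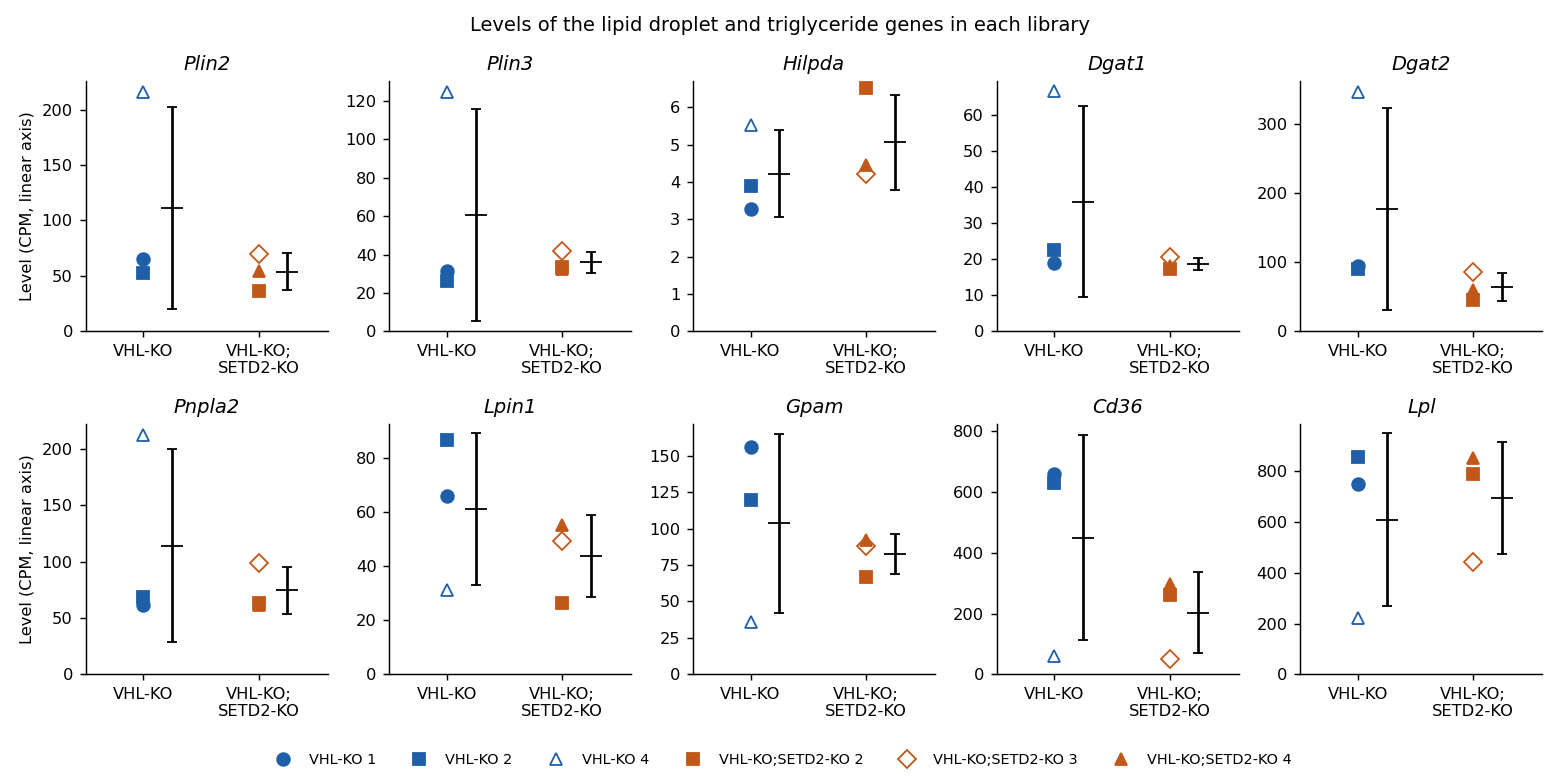
Level of each of the 10 genes in each of the 6 libraries, in CPM on linear axes that start at 0. Points are libraries, grouped by label, and the bars give the mean and SD (n = 3). VHL-KO 4 (open triangle) lies above every other library for Plin2, Plin3, Dgat1, Dgat2 and Pnpla2 and below them for Gpam and Lpl.

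Uptake of fatty acids is taken first. Cd36, the membrane protein that takes up long-chain fatty acids, lies on chromosome 5 (GRCm38.p6 chr5:17781690-17888959). Its level was 659, 630 and 61.5 CPM in VHL-KO 1, 2 and 4 and 262, 50.3 and 298 CPM in VHL-KO;SETD2-KO 2, 3 and 4. The 2 highest libraries carry the VHL-KO label and 1 low library stands under each label, so the groups overlapped. The log2 fold change over all 6 libraries was -1.15 (SE 0.92, 95% interval -3.27 to 0.98, adjusted p = 0.695 from edgeR). Without the library labelled VHL-KO 4 the groups no longer overlapped, and Cd36 was 3.18-fold lower under the double-knockout label, with a log2 fold change of -1.67 (SE 0.67, unadjusted p = 0.0480 and adjusted p = 0.240 from edgeR). DESeq2 gave an adjusted p of 0.0683 for the same 5 libraries. When VHL-KO;SETD2-KO 3 was left out as well, a choice made after the data had been seen, the remaining 4 libraries gave -1.20. Since that library was set apart in part by its Cd36 level, this value is a description with no test.

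Lpl encodes lipoprotein lipase, which frees fatty acids from circulating lipoproteins (chr8:68880555-68906932). Its level was 751, 856 and 222 CPM in VHL-KO 1, 2 and 4 and 792, 443 and 853 CPM in VHL-KO;SETD2-KO 2, 3 and 4. As with Cd36, VHL-KO 4 and VHL-KO;SETD2-KO 3 were the 2 lowest libraries, but the other 4 lay close together across the labels. The log2 fold change was 0.19 (SE 0.59, 95% interval -1.17 to 1.55, adjusted p = 0.914 from edgeR) and turned to -0.21 (95% interval -0.98 to 0.56) without VHL-KO 4. Within a library, where scaling plays no part, the ratio of Lpl to Cd36 counts was 1.14, 1.36 and 3.61 under the VHL-KO label and 3.03, 8.80 and 2.86 under the double-knockout label. VHL-KO 1 and 2 had the 2 lowest ratios, and VHL-KO 4 fell among the others.

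Gpam encodes a mitochondrial glycerol phosphate acyltransferase, which adds the first fatty acid to glycerol phosphate (chr19:55067635-55127319). Its level was 156, 119 and 36.1 CPM in VHL-KO 1, 2 and 4 and 67.0, 88.0 and 92.3 CPM in VHL-KO;SETD2-KO 2, 3 and 4. VHL-KO held both the 2 highest libraries and the lowest. Over all 6 libraries the log2 fold change was -0.33 (SE 0.55, 95% interval -1.61 to 0.94, adjusted p = 0.834 from edgeR). Without VHL-KO 4 the labels did not overlap and Gpam was 1.67-fold lower under the double-knockout label, with a log2 fold change of -0.74 (SE 0.20, unadjusted p = 0.0106 and adjusted p = 0.146 from edgeR, adjusted p = 0.0333 from DESeq2). Gpam was the only member that passed the adjusted threshold in DESeq2 on these 5 libraries, where 8.25% of all genes did. Its promoter with the second start carries the single HIF core match shown above.

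Lpin1 encodes a phosphatidate phosphatase, which makes diacylglycerol (chr12:16535669-16653903). Its level was 65.7, 86.6 and 31.1 CPM in VHL-KO 1, 2 and 4 and 26.5, 49.3 and 55.1 CPM in VHL-KO;SETD2-KO 2, 3 and 4. The 2 highest libraries were again VHL-KO 1 and 2, while VHL-KO 4 lay inside the range of the other label. It had a log2 fold change of -0.49 (SE 0.51, 95% interval -1.65 to 0.67, adjusted p = 0.754 from edgeR). It was -0.81 without VHL-KO 4 (SE 0.32, unadjusted p = 0.0458 and adjusted p = 0.236 from edgeR), a level 1.75-fold lower, with no overlap. With VHL-KO;SETD2-KO 3 left out too, a choice made after the data had been seen, it was -0.90 (SE 0.32, adjusted p = 0.0962 from edgeR).

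Dgat1 and Dgat2 encode the acyltransferases that complete triglyceride from diacylglycerol. They are unrelated in sequence, and Dgat2 mainly uses newly made fatty acids. Dgat2 (chr7:99153663-99182713) had 94.6, 90.0 and 346 CPM in VHL-KO 1, 2 and 4 and 45.8, 85.2 and 59.4 CPM in VHL-KO;SETD2-KO 2, 3 and 4. Every library labelled VHL-KO lay above every library of the other label, although VHL-KO 2 and VHL-KO;SETD2-KO 3 were close. The means were 177 ± 146 and 63.4 ± 20.0 CPM (SD, n = 3 each). Dgat2 was 2.79-fold lower under the double-knockout label, with a log2 fold change of -1.48 (SE 0.62, 95% interval -2.91 to -0.043, unadjusted p = 0.0448 and adjusted p = 0.625 from edgeR). Without VHL-KO 4 the log2 fold change was -0.55 (SE 0.26, unadjusted p = 0.0835 from edgeR), under the fold threshold, and the labels still did not overlap. Without VHL-KO 4 and VHL-KO;SETD2-KO 3 it was -0.81 (SE 0.15, adjusted p = 0.0137 from edgeR).

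Dgat1 (chr15:76502012-76512021) had 18.8, 22.5 and 66.5 CPM in VHL-KO 1, 2 and 4 and 17.2, 20.6 and 18.2 CPM in VHL-KO;SETD2-KO 2, 3 and 4. Apart from VHL-KO 4, its libraries were close to one another under both labels. The log2 fold change was -0.95 (SE 0.54, 95% interval -2.19 to 0.30, adjusted p = 0.625 from edgeR), and without VHL-KO 4 it was -0.15 with an interval of -0.55 to 0.25. The ratio of Dgat2 to Dgat1 counts was 5.04, 4.00 and 5.20 under the VHL-KO label and 2.67, 4.14 and 3.27 under the double-knockout label, so that VHL-KO;SETD2-KO 3 overlapped the VHL-KO range and the other 2 libraries lay below it.

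Perilipins coat the droplet and shield its triglyceride. Plin2, the perilipin that marks droplets in most cells outside fat tissue and is stable only on them (chr4:86626910-86670217), had 64.9, 52.6 and 216 CPM in VHL-KO 1, 2 and 4 and 36.7, 69.9 and 54.5 CPM in VHL-KO;SETD2-KO 2, 3 and 4. VHL-KO 4 was more than 3-fold above the rest, at 3.97 times the median of the other 5 libraries, which were mixed between the labels. The log2 fold change was -1.05 (SE 0.61, 95% interval -2.46 to 0.36, adjusted p = 0.626 from edgeR) and without VHL-KO 4 it was -0.13 (SE 0.28, unadjusted p = 0.649 from edgeR).

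Plin3, a perilipin that also stays soluble and covers newly formed droplets (chr17:56278962-56290511), had 31.2, 26.2 and 124 CPM in VHL-KO 1, 2 and 4 and 33.3, 42.0 and 32.4 CPM in VHL-KO;SETD2-KO 2, 3 and 4. VHL-KO 1 and 2 were the lowest libraries and VHL-KO 4 the highest. Its log2 fold change of -0.76 (SE 0.63, adjusted p = 0.701 from edgeR) therefore turned to 0.32 without VHL-KO 4 (SE 0.18, unadjusted p = 0.121 from edgeR), with no overlap between the labels. The ratio of Plin2 to Plin3 counts within a library was 2.08, 2.01 and 1.74 under the VHL-KO label and 1.10, 1.66 and 1.68 under the double-knockout label. All 3 ratios under the VHL-KO label were above the 3 under the other, VHL-KO 4 included, though its distance to the next library was small.

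Pnpla2 encodes the lipase ATGL, which removes the first fatty acid from triglyceride (chr7:141455188-141460743). Its level was 61.3, 68.6 and 213 CPM in VHL-KO 1, 2 and 4 and 63.3, 98.7 and 61.8 CPM in VHL-KO;SETD2-KO 2, 3 and 4. The labels overlapped with and without VHL-KO 4. Its log2 fold change was -0.61 (SE 0.57, adjusted p = 0.729 from edgeR) with all libraries and 0.20 (95% interval -0.39 to 0.79) without it.

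Hilpda encodes a small droplet protein that inhibits ATGL and is induced by hypoxia (chr6:29272488-29275449). It was the member with the lowest level, at 3.27, 3.89 and 5.52 CPM in VHL-KO 1, 2 and 4 and 6.54, 4.22 and 4.45 CPM in VHL-KO;SETD2-KO 2, 3 and 4, from 42 to 123 counts. The spread among the libraries was narrow compared with that of most other members, and VHL-KO 4 lay inside the range of the others. The log2 fold change was 0.27 (SE 0.45, 95% interval -0.77 to 1.30, adjusted p = 0.836 from edgeR), and 0.50 (SE 0.32, unadjusted p = 0.163 from edgeR) without VHL-KO 4, where the labels did not overlap. The ratio of Hilpda to Pnpla2 counts was 0.0534, 0.0567 and 0.0259 under the VHL-KO label and 0.103, 0.0428 and 0.0721 under the double-knockout label, which overlapped. VHL is deleted by label in both groups, so the effect of its loss on Hilpda and Plin2 is not part of this comparison.

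**Figure D2:**
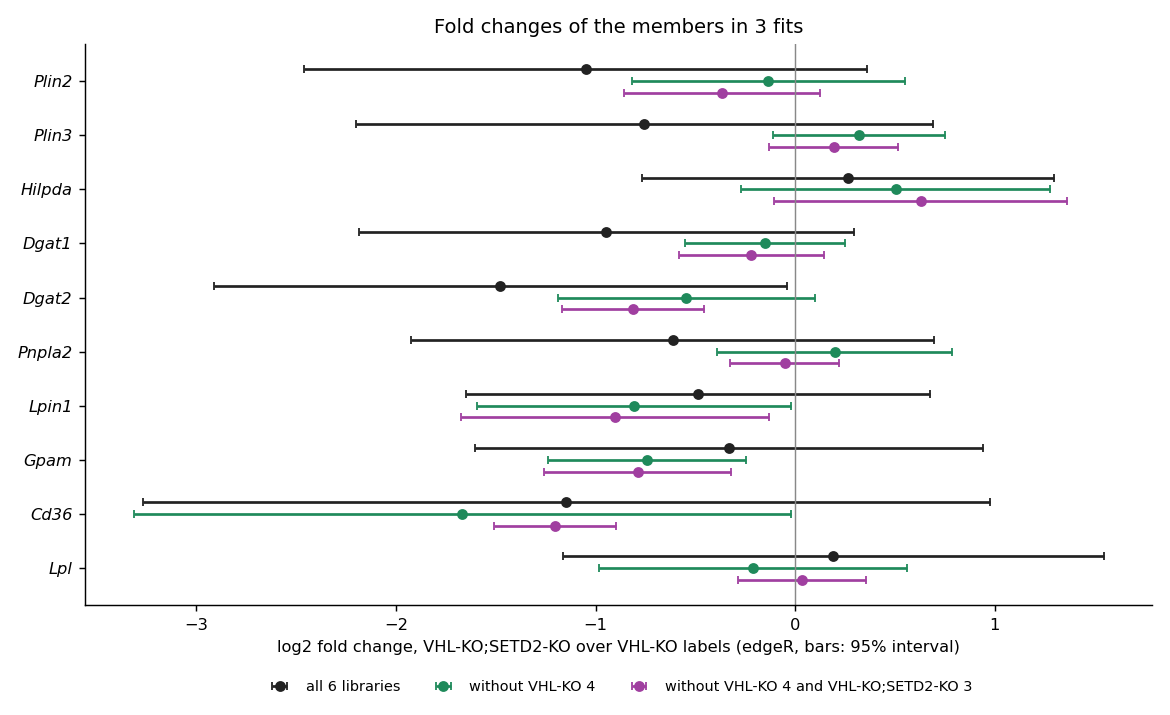
Log2 fold change of each member under the double-knockout label over the VHL-KO label, with its 95% interval from edgeR, in 3 fits. With all 6 libraries only the interval of Dgat2 lies wholly below 0. Without VHL-KO 4 those of Lpin1, Gpam and Cd36 do, and without VHL-KO 4 and VHL-KO;SETD2-KO 3 those of Dgat2, Lpin1, Gpam and Cd36.

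Without the library labelled VHL-KO 4, 3 of 10 members passed as lower at the unadjusted threshold in edgeR and 0 as higher, where 7.14% of 15000 tested genes were lower and 8.29% were higher. The labels then did not overlap for 6 members, Plin3 and Hilpda higher and Dgat2, Lpin1, Gpam and Cd36 lower. Among all genes 20.1% were higher and 21.4% lower without overlap. Without VHL-KO;SETD2-KO 3 as well, 4 of 10 members passed as lower and 0 as higher, where 10.4% and 13.4% of all genes did. With adjustment 3 members passed, Dgat2, Gpam and Cd36, as against 16.8% of all genes, and the call of Cd36 there is no support since its level helped to set that library apart. The limma-voom fit with sample quality weights kept all 6 libraries but gave VHL-KO 4 a weight of 0.0376 and VHL-KO;SETD2-KO 3 a weight of 0.458, beside 2.41 to 3.62 for the others. In it Cd36 at -1.33, Dgat2 at -0.75 and Gpam at -0.72 passed with adjusted p-values from limma of 0.0310, 0.0210 and 0.0305, among 18.2% of all genes. These weights nearly remove the libraries that the other fit leaves out, so the 2 fits are not separate evidence.

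Per kilobase of exon, which allows levels to be compared between genes, Cd36, Lpl and Dgat2 had the highest means under the VHL-KO label, at 125 ± 93.8, 58.2 ± 32.4 and 57.4 ± 47.5 CPM per kilobase (SD, n = 3), followed by Pnpla2 at 37.8 ± 28.3 and Plin2 at 31.7 ± 25.9, with SD ranges that overlapped between neighbours. VHL-KO 4 is part of these means. It had 346 CPM of Dgat2 against 94.6 and 90.0 CPM in VHL-KO 1 and 2, and 61.5 CPM of Cd36 against 659 and 630 CPM. The means and their order under the VHL-KO label therefore rest in part on that library. Under the double-knockout label the order at the top was Lpl at 66.4 ± 21.1 and Cd36 at 56.7 ± 37.3 CPM per kilobase, which did not differ beyond their spread. Pnpla2 at 24.7 ± 6.92, Dgat2 at 20.6 ± 6.49, Plin2 at 15.3 ± 4.73, Gpam at 12.4 ± 2.04 and Plin3 at 9.48 ± 1.41 CPM per kilobase followed, with SD ranges that met or overlapped between neighbours. Dgat1 lay below Plin3 by more than their spread, at 6.10 ± 0.569. Hilpda at 4.60 ± 1.16 and Lpin1 at 4.51 ± 1.56 had the lowest means. Their SD ranges overlapped each other and that of Dgat1, so the order among these genes is open. Under the VHL-KO label both genes also had the lowest means, at 3.83 ± 1.05 for Hilpda and 6.33 ± 2.90 for Lpin1. The SD range of Dgat1 there, at 11.8 ± 8.685, overlapped theirs. Its mean rests largely on VHL-KO 4, at 66.5 CPM against 18.8 and 22.5 CPM in VHL-KO 1 and 2.

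Most members followed 1 of 2 patterns over the 6 libraries. Plin2, Plin3, Dgat1, Dgat2 and Pnpla2 were at 3.36 to 4.06 times the median of the other libraries in VHL-KO 4. Gpam and Lpl were below every other library there, at 0.391 and 0.280 times the median, and Cd36 was at 0.206 times it. Log2 CPM of Plin2 followed that of Dgat2 most closely (Pearson's r = 0.974 over 6 libraries, 0.829 over the 5 without VHL-KO 4), and Plin3 followed Pnpla2 (0.966 and 0.709). Cd36 and Lpl moved together with and without it (0.826 and 0.880), as did Lpin1 and Gpam (0.806 and 0.826). Lpl ran opposite to Pnpla2 (-0.983 and -0.931), and Hilpda opposite to Lpin1 (-0.899 and -0.881). These coefficients are descriptions over few libraries that share their scaling, and the first ones rest largely on VHL-KO 4. Without VHL-KO 4, those of Cd36 with Lpl and of Lpl with Pnpla2 rest largely on VHL-KO;SETD2-KO 3. It had 50.3 CPM of Cd36 and 443 CPM of Lpl, against 262 to 659 and 751 to 856 CPM in the remaining libraries. Its Pnpla2 level was 98.7 CPM, against 61.3 to 68.6 CPM there. Among all tested genes the patterns most like that of Plin2 were those of Stip1, Sec31a and Plcxd1 (r = 0.998, 0.998 and 0.997 over 6 libraries), and those most like Hilpda were Pxdc1, Mical1 and Trim62 (0.999, 0.996 and 0.975).

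**Figure D3:**
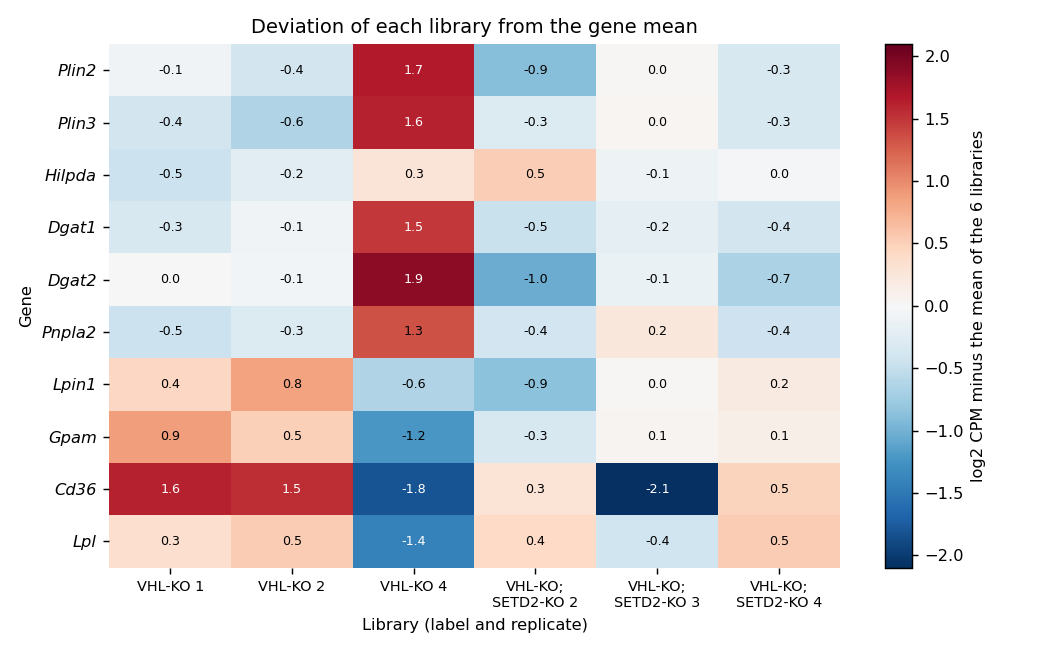
Deviation of each library's log2 CPM from the mean of the 6 libraries, for each member. Rows are genes, columns are libraries, and red is above and blue below the mean. VHL-KO 4 is far above the mean for the 5 genes Plin2, Plin3, Dgat1, Dgat2 and Pnpla2, and Cd36 is far below it in VHL-KO 4 and VHL-KO;SETD2-KO 3.

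The direct partners of the members showed no common direction. Abhd5, the protein that activates ATGL, had 52.4, 47.2 and 45.6 CPM under the VHL-KO label and 39.0, 33.3 and 38.6 CPM under the other, with no overlap and little spread, including VHL-KO 4. Its log2 fold change was -0.39 (SE 0.35, unadjusted p = 0.298 from edgeR), and -0.43 (SE 0.14, unadjusted p = 0.0195) without VHL-KO 4, under 1.5-fold. G0s2, an inhibitor of ATGL, had 17.6, 19.1 and 35.3 CPM against 10.6, 16.3 and 6.59 CPM, also with no overlap, and a log2 fold change of -1.10 (SE 0.49, unadjusted p = 0.0536 from edgeR). Thus both the activator and the inhibitor of Pnpla2 had lower levels in all 3 double-knockout libraries, and neither passed with all 6 libraries.

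Gpihbp1, which carries lipoprotein lipase across the endothelium, had 6.49, 9.90 and 34.2 CPM under the VHL-KO label and 22.3, 16.6 and 14.1 CPM under the double-knockout label. The labels overlapped because of VHL-KO 4, and the log2 fold change was 0.070 (SE 0.63, unadjusted p = 0.914 from edgeR). Without that library it was 2.17-fold higher (DESeq2 adjusted p = 0.0202, edgeR adjusted p = 0.140), and the 8 endothelial markers summed to 1654 and 1988 CPM in VHL-KO 1 and 2 and to 4603, 1543 and 3765 CPM under the other label. Their part in the result was not tested. Angptl4, an inhibitor of lipoprotein lipase and a known HIF target, had too few counts to be tested, from 0 to 1.87 CPM.

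Lpin2 and Lpin3 encode the other lipins. Lpin2 had 74.5, 74.6 and 27.0 CPM against 81.4, 72.5 and 86.7 CPM, with a log2 fold change of 0.45 (SE 0.48, unadjusted p = 0.371 from edgeR). Lpin3 had 11.5, 11.8 and 21.5 CPM against 5.95, 7.21 and 6.96 CPM, with no overlap and the lower values under the double-knockout label. The other acyltransferases for the first step, Gpat3 and Gpat4, had log2 fold changes of 0.40 (SE 0.48) and -0.90 (SE 0.57), and the perilipins Plin4 and Plin5 of 0.067 (SE 0.65) and -0.91 (SE 0.62), all with overlap between the labels and unadjusted p-values from edgeR of 0.153 to 0.921. Gpat4 was at -0.025 without VHL-KO 4.

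Beyond the members, several genes of droplet coat and assembly and of triglyceride synthesis were lower with and without VHL-KO 4. Of 14 droplet coat and assembly genes 10 could be tested, of which 4 were lower and 0 higher at the unadjusted threshold in edgeR, with a median log2 fold change of -1.11. Without VHL-KO 4 the count was 3 and the median -0.33, where 7.14% of all tested genes were lower and the median over the genes tested in both fits was 0.030. With all 6 libraries 4.68% of all tested genes passed as lower and 2.65% as higher, with a median of 0.0093. These shares stand beside the counts of the lists that follow. Hsd17b11, a droplet-bound dehydrogenase, had 388, 400.1 and 567 CPM under the VHL-KO label and 141, 81.9 and 155 CPM under the double-knockout label. The groups were far apart in every library. Its log2 fold change was -1.84 (SE 0.45, unadjusted p = 0.00345 and adjusted p = 0.625 from edgeR), and -1.65 without VHL-KO 4 (adjusted p = 0.0817 from edgeR and 1.929e-05 from DESeq2).

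Cideb, which promotes the fusion of droplets and the lipidation of lipoproteins, had 122, 111 and 485 CPM against 61.4, 62.4 and 63.3 CPM, so the 3 double-knockout libraries agreed closely and lay below all others. It fell by 1.94 on the log2 scale (SE 0.64, unadjusted p = 0.0157 from edgeR), and by 0.91 without VHL-KO 4 (adjusted p = 0.0775 from edgeR and 6.035e-07 from DESeq2). Fitm1, which helps droplets bud, had 14.9, 17.0 and 64.4 CPM against 6.32, 13.7 and 7.97 CPM (log2 fold change -1.78, unadjusted p = 0.0264 from edgeR). Without VHL-KO 4 it was at -0.78 (SE 0.34, unadjusted p = 0.0638 from edgeR) and did not pass. The fourth gene, Fitm2, was named after its values were seen (log2 fold change -0.99, unadjusted p = 0.0396 from edgeR). Plin1 and Cidec, which are characteristic of fat cells, had at most 0.338 CPM.

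Of 17 genes of triglyceride synthesis 14 could be tested. Of these, 4 passed as lower and 0 as higher (4.68% and 2.65% of all tested genes), with a median log2 fold change of 0.12. Mogat1 and Mogat2 make diacylglycerol from monoacylglycerol. Mogat1 had 50.01, 63.0 and 137 CPM under the VHL-KO label and 20.7, 12.4 and 22.6 CPM under the double-knockout label, a wide gap with no overlap. It fell by 2.16 on the log2 scale (SE 0.52, unadjusted p = 0.00313 from edgeR), and by 1.61 without VHL-KO 4 (adjusted p = 0.0785 from edgeR and 6.606e-05 from DESeq2). Mogat2 had 15.2, 26.2 and 103 CPM against 10.7, 10.4 and 9.85 CPM (log2 fold change -2.22, unadjusted p = 0.0134 from edgeR), and -1.003 without VHL-KO 4 (unadjusted p = 0.00737). Lpin3 was the third at -1.15 (SE 0.42, unadjusted p = 0.0250 from edgeR), and Agpat3, named after its values were seen, the fourth at -1.28 (SE 0.55, unadjusted p = 0.0467 from edgeR). Without VHL-KO 4 Lpin3 was at -0.80 and still passed, while Agpat3 was at -0.57, under 1.5-fold, and lost its call. Acsl4 and Acsl5, which activate fatty acids, were higher in every double-knockout library, with log2 fold changes of 1.03 (SE 0.62) and 0.62 (SE 0.39) that did not pass.

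Of 10 lipolysis genes 8 were tested and 0 passed in either direction by edgeR at an unadjusted p under 0.05, with a median log2 fold change of -0.35. Without VHL-KO 4 only Mgll, which splits monoacylglycerol, passed, as higher, at a log2 fold change of 0.87 (SE 0.17, adjusted p = 0.0921 from edgeR and 0.00154 from DESeq2). Of 16 genes of uptake and lipoproteins 12 were tested and 1 passed, as higher (2.65% of all tested genes), Fabp4, a fatty acid binding protein of fat cells, macrophages and capillary endothelium. It had 9.70, 19.2 and 4.12 CPM under the VHL-KO label and 27.0, 72.2 and 23.5 CPM under the other, with no overlap and its highest level in VHL-KO;SETD2-KO 3. It rose by 1.90 on the log2 scale (SE 0.68, unadjusted p = 0.0232 from edgeR). Without VHL-KO 4, 2 genes of this list passed as higher, Fabp4 and Gpihbp1, beside 8.29% of all tested genes. As lower passed 2, Slc27a2 and the lipoprotein receptor Vldlr (log2 fold change -0.72, SE 0.27, unadjusted p = 0.0373 from edgeR), beside 7.14% of all tested genes. Slc27a2, a fatty acid transporter of the proximal tubule that is also on the list of its markers, had 2203 to 3390 CPM against 1337 to 1635 CPM. Its log2 fold change was -1.02 (unadjusted p = 0.0508 from edgeR), and -1.20 without VHL-KO 4 (adjusted p = 0.0863 from edgeR and 9.919e-10 from DESeq2).

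Of 10 regulators 9 were tested and 2 passed as lower, as did 4.68% of all tested genes. Nr1h3, the nuclear receptor LXR alpha, had 25.8, 26.4 and 103 CPM against 15.1, 23.5 and 15.1 CPM (log2 fold change -1.53, unadjusted p = 0.0390 from edgeR), and without VHL-KO 4 it was at -0.54 (unadjusted p = 0.0584) and lost its call. Mlx, the partner of the carbohydrate response factor ChREBP, had 41.2, 35.6 and 87.4 CPM against 26.6, 24.7 and 25.9 CPM (log2 fold change -1.09, unadjusted p = 0.0428 from edgeR). Without VHL-KO 4 it was at -0.58 (unadjusted p = 0.00473 from edgeR), just under 1.5-fold. Mlxipl, which encodes ChREBP itself, passed as lower only without VHL-KO 4, at -1.05 (SE 0.29, adjusted p = 0.148 from edgeR and 0.0227 from DESeq2). Epas1, which encodes a HIF subunit found in endothelium among other cells, was higher in each double-knockout library at a log2 fold change of 1.16 (SE 0.51, unadjusted p = 0.0528 from edgeR), and passed as higher without VHL-KO 4 at 0.85 (SE 0.31, unadjusted p = 0.0330 and adjusted p = 0.210 from edgeR). In none of the 5 lists did a gene pass the adjusted threshold in edgeR with all 6 libraries.

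**Figure D4:**
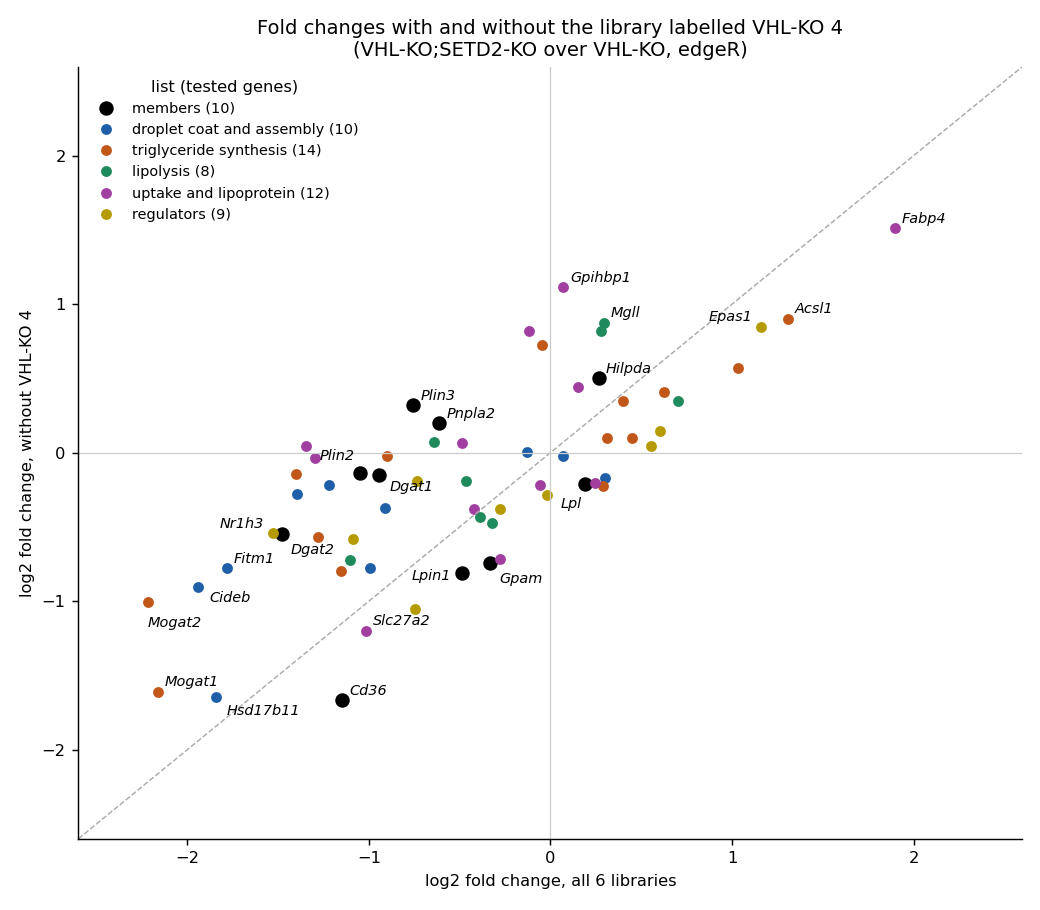
Log2 fold changes from edgeR with all 6 libraries (x axis) and without VHL-KO 4 (y axis) for the members and the tested genes of 5 lists of lipid genes. On the dashed line both fits are equal. Hsd17b11 and Mogat1 lie low in both, while Plin2 and Dgat1 come close to 0 and Plin3 and Pnpla2 cross it without VHL-KO 4.

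Markers of several kidney cell types were detected. Those of the proximal tubule were the most abundant. The 10 of them summed to 33330, 30810 and 32060 CPM under the VHL-KO label and to 13000, 10260 and 14450 CPM under the double-knockout label. This sum moved with the labels, but its genes did not all do so. In VHL-KO 4 Slc34a1, a phosphate transporter, made up 14210 CPM of it, while the endocytic receptor Lrp2 at 940 CPM and the lactate transporter Slc5a12 at 53.7 CPM were below every double-knockout library. With all 6 libraries 3 of the 10 genes passed as lower and 0 as higher, where 4.68% and 2.65% of all tested genes did. The 5 podocyte markers summed to 1437, 1928 and 2089 CPM against 4836, 1971 and 4296 CPM, with 3 of 5 passing as higher, beside the same 2.65%. Of 8 endothelial markers 0 passed with edgeR at an unadjusted p under 0.05, at a median log2 fold change of 1.03. In bulk samples, fewer cells of a type and less RNA per cell cannot be told apart. The proximal tubule sum was lower under the same label as Dgat2, as Cd36, Gpam and Lpin1 without VHL-KO 4, and as Hsd17b11, Cideb, Mogat1, Mogat2 and the other lipid genes called lower, and its part in these results was not tested.

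The collecting duct markers summed to 51.0, 75.6 and 426 CPM against 77.8, 228 and 84.4 CPM, with 2 of 6 passing as higher (2.65% of all tested genes), and those of the thick limb and distal tubule to 1196, 1885 and 4805 CPM against 1483, 4095 and 1763 CPM, with 1 of 6 passing as higher. Both sums were highest in VHL-KO 4 and VHL-KO;SETD2-KO 3, the 2 libraries with the least Cd36 and Lpl. In VHL-KO 4 the genes of both lists did not move together. Umod, Slc12a3, Pvalb, Aqp2, Aqp3 and Slc4a1 were above every other library. Slc12a1 at 79.2, Calb1 at 42.5 and Atp6v1g3 at 2.71 CPM were below every other library. The stromal sum ranged from 47.4 to 299.9 CPM with 0 of 6 genes passing at an unadjusted p under 0.05 in edgeR. Of 8 macrophage markers 2 passed as lower, beside 4.68% of all tested genes, and the sums were 115, 324 and 340 CPM against 221, 82.4 and 264 CPM. Macrophages also express Cd36 and Lpl, and endothelium also expresses Cd36. The part of these cell types in the levels of both genes was not tested. The 7 adipocyte markers were each at 0 in at least 1 library and summed to between 0.106 and 0.561 CPM in 5 libraries and to 6.20 CPM in VHL-KO;SETD2-KO 3, mostly from Cfd.

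**Figure D5:**
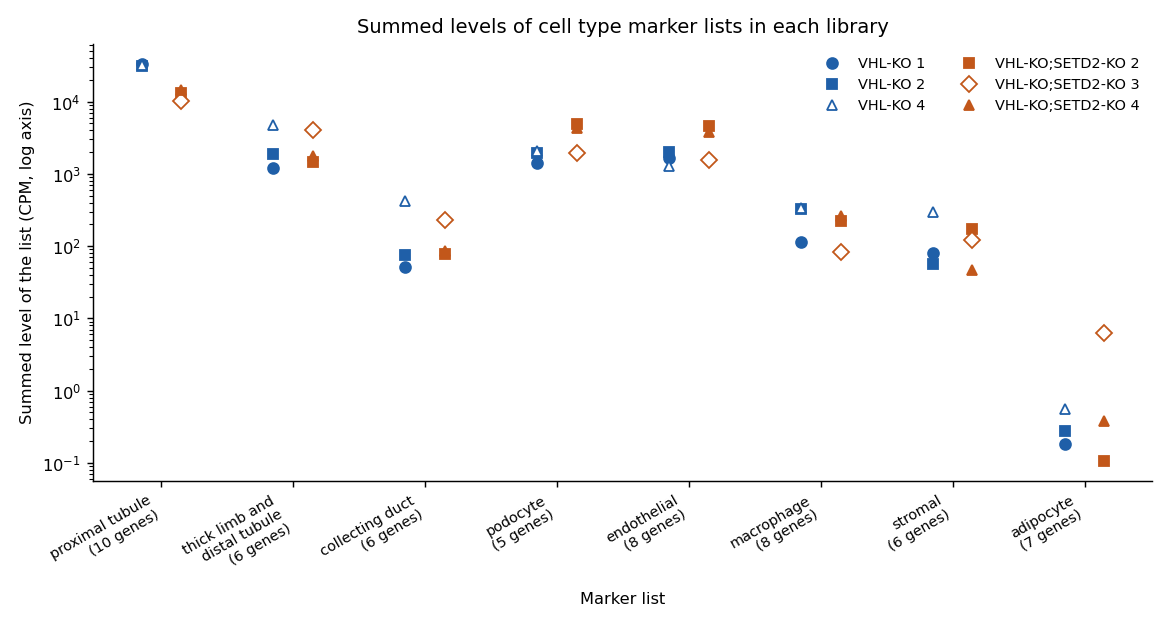
Summed level of each list of cell type markers in each library, in CPM on a log axis. Points are libraries. The proximal tubule sum is lower in all 3 double-knockout libraries, and the adipocyte sum is at most 6.20 CPM.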

How the data were processed

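Directional libraries of Trizol RNA from PTECs were sequenced as paired ends (6 libraries) and the authors deposited raw counts of reads per gene symbol, not normalised. The submitters' processing notes name HISAT2 2.0.4 and the build GRCm38. The counting program, annotation and use of strand are not given in the sources used here. Groups and replicate numbers came from the sample labels, and the number of unused columns was 0. The study names 3 mice per group, and each library is taken as 1 mouse.

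The count table was analysed with edgeR 4.0.16 in R 4.3.3: filterByExpr left 14611 of 46095 genes, library sizes were scaled by TMM, and the quasi-likelihood test was fitted to all 6 libraries with the label as the only factor. P-values were adjusted by Benjamini-Hochberg over all tested genes, and a call needs a fold change of 1.5 or more with p under 0.05, the thresholds of the study's methods. DESeq2 1.42.0, the tool named there, and limma 3.58.1 served as alternatives. Log2 CPM used a prior count of 2. Intervals are 95%. Depth set a floor of 3 counts, which covers counting error alone because reads were not tied to molecules by identifiers. Lengths are the union of GENCODE M21 exons, coordinates and promoters are RefSeq's, and Gpat3 was found under its synonym Agpat9. Ldaf1 was not matched. Mitochondrial genes are the protein-coding ones of that chromosome.

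The members and all gene lists were chosen with earlier results of these data known. Named genes are the members, their direct partners, up to 3 genes per list and direction with the smallest p among those passing, and the 3 genes most like Plin2 and Hilpda. Genes that passed only without VHL-KO 4, or that were not called (Acsl4, Acsl5, Epas1, Mgll, Mlxipl, Slc27a2, Vldlr), were named after their values were seen, as were those marked so in the text. Fits were tested on simulated data. Numbers 2 and 4 are shared by the labels, but mice of 2 genotypes cannot be the same animal, so no block was used. Alternatives were other scalings, filters, tests, a replicate block and leaving out each library. The fit without VHL-KO 4 and VHL-KO;SETD2-KO 3 together and DESeq2 without VHL-KO 4 were chosen after the data had been seen.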

Additional observations from a re-analysis of the deposited data

How the results depend on the processing

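Dgat2 kept its direction in every fit run, but its unadjusted p rose above 0.05 in edgeR without VHL-KO 4 (0.0835), without VHL-KO;SETD2-KO 2, 3 or 4 (0.144, 0.0609 and 0.119) and with the replicate block (0.163), in limma's voom fit (0.0763) and in DESeq2 without VHL-KO 4 (0.0791). Its log2 fold change was -0.55 in both fits without VHL-KO 4, and -1.26, -1.73 and -1.40 without the 3 others, -1.76 with the block and -1.23 with voom. Under the block and under voom 0 members passed as lower. When single libraries were left out in turn, between 0 and 3 members passed as lower and 1 to 6 did not overlap. Of all genes 179 to 1243 passed as higher, 206 to 1078 as lower and 0 or 1 with adjustment. Log2 fold changes then ran from -0.74 to 0.090 for Gpam, -1.09 to 0.32 for Plin3, -0.89 to 0.20 for Pnpla2 and -0.21 to 0.52 for Lpl. The replicate number as a block gave 93 genes higher and 54 lower and turned Gpam to 0.26 and Cd36 to 0.50. Deviations of same-numbered libraries correlated at 0.165 (replicate 2) and -0.319 (replicate 4) across genes, which does not show that the numbers pair the libraries. DESeq2 on all libraries called 1133 genes lower and 51 with adjustment. Without VHL-KO 4 it called 3 members lower and 1 with adjustment, and 1425, 1093 and 1238 genes (higher, lower, adjusted), with Plin3 at 0.31, Pnpla2 at 0.19 and Lpl at -0.22. Limma-voom with quality weights called 4 members lower and 3 with adjustment, and 2124, 1527 and 2657 genes, with Plin3 at 0.20 and Lpl at -0.0066. Without VHL-KO 4 and VHL-KO;SETD2-KO 3 together, 4 members passed as lower, 3 passed with adjustment and 7 did not overlap, with Plin3 at 0.19. Of all genes 1976, 1531 and 2474 passed (higher, lower, adjusted). With no filter on low counts 634 genes passed as higher and 2 with adjustment, and with at least 10 counts in every library 0 passed with adjustment. The cause of these changes was not tested. Other size factors, or library sizes without mitochondrial genes, changed the call and the direction of 0 members. Depth limits Hilpda most, at 42 to 123 counts.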

Other observations

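Several lipid genes had their highest level in VHL-KO;SETD2-KO 3, the library in which Cd36 was lowest under its label. Acsl1, the main acyl-CoA synthetase of fatty acid oxidation, had 459.6 CPM there and 31.9 to 133 CPM in the other 5 libraries. Apob, the structural protein of very low density lipoproteins, had 286 CPM there and 35.5 to 189 CPM elsewhere, and Mttp, which loads it with lipid, had 48.7 CPM there and 12.9 to 33.3 CPM elsewhere. Fabp1, a fatty acid binding protein of liver and proximal tubule, had 7.32 CPM there and 0.053 to 0.187 CPM elsewhere. Ppara and Ppargc1a, regulators of fatty acid oxidation, were also highest in this library, at 164 and 78.1 CPM. This was also the library with 11704 counts of Xist, the RNA that coats the silenced X chromosome in cells of females, beside 0 to 4 counts elsewhere, and its part in these values was not tested. These genes were picked after their values were seen, and the values are given as a description with no test.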
